A study of Mus musculus with 5 samples.

Results

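The AP-1 and immediate early genes described here are *Fos*, *Fosb*, *Fosl1*, *Fosl2*, *Jun*, *Junb*, *Jund*, *Atf3*, *Egr1* and *Ier2*, 10 of the 31053 genes counted. They were listed by name, with earlier results of these data known. They were measured by droplet single-cell RNA sequencing of adult mouse lung in 5 libraries of pooled mice, with 3 hashtag antibodies in use per library to tell the mice apart. The groups were Itgb1 fl/fl lungs 7 days after LPS, Itgb1 iKO lungs 7 days after LPS, Itgb1 iKO lungs 7 days after PBS, Itgb1 fl/fl lungs 21 days after LPS and Itgb1 iKO lungs 21 days after LPS. LPS, the bacterial endotoxin that injures the alveolus, or PBS as its vehicle was given once into the trachea. Both genotypes carry floxed *Itgb1*, the gene of the β1 integrin subunit through which cells hold on to the basement membrane. In iKO mice, doxycycline turns on Cre from the SP-C promoter, which is active in alveolar type 2 (AT2) cells, the surfactant-making cells from which the alveolar surface is renewed. Endothelial and mesenchymal cells therefore keep their own *Itgb1* in both genotypes. Sorted cells were viable, CD45-negative and Ter119-negative, and the day 21 suspensions were enriched for EPCAM-positive cells. No PBS-treated fl/fl lungs were analysed here.

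AP-1 is a dimer of a Fos protein with a Jun protein, or of Jun proteins with each other, that binds a short DNA site in the promoters and enhancers of growth, stress and inflammatory genes. Immediate early genes are those whose transcription starts within minutes of a growth factor, a stretch, a cytokine or an injury, with no need for new protein, because MAP kinases act on factors that already sit at their promoters. In the lung they are known to respond to injury and mechanical stretch, and also to the enzymatic digestion that every cell here went through before sorting. Transcription measured in sorted cells therefore holds what the cells carried in the tissue and what they made during digestion, which cannot be told apart.

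A UMI is the tag of 1 captured RNA molecule, and a cell entered if it showed 700 or more genes and if 0.1 to 15% of its UMIs were mitochondrial. AT2 cells had at least 5% of their UMIs from *Sftpc*, at least 1 *Epcam* UMI and none of *Cdh5*, *Pecam1* or *Col1a2*. Endothelial cells had at least 2 UMIs of *Cdh5* and *Pecam1* together and none of *Epcam* or *Col1a2*, and mesenchymal cells had at least 2 *Col1a2* UMIs and none of *Cdh5*, *Pecam1* or *Epcam*. A level is a gene's summed UMIs scaled to counts per 1000000 UMIs (CPM) over the cells of 1 mouse and class, and the mouse, named by its hashtag number, is the replicate. Since a molecule is counted once whatever its length, CPM can be set side by side between genes. Sums over a class cannot tell fewer cells of a subtype from less RNA per cell.

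The libraries held 2224 to 8671 cells and 8360954 to 29128331 UMIs, and 0.674 to 1.41% of the smaller library's barcodes also occurred in another library. AT2 cells numbered 26 to 1240 per library, endothelial cells 879 to 7976 and mesenchymal cells 103 to 553. A single hashtag was carried by 50.3 to 78.7% of a library's cells, and those cells gave the values per mouse. The marker lists include genes of the gates, so their match is partly fixed by the rule. The 10 endothelial markers summed to 17245 to 21458 CPM in endothelial cells and 60.6 to 153 CPM in AT2 cells, and 8 immune markers to at most 10.4 CPM in any class. *Itgb1* in AT2 cells was 258, 235 and 305 CPM in fl/fl mice against 214, 150 and 193 CPM in iKO mice at day 7 after LPS, and 356, 319 and 372 CPM against 141, 178 and 146 CPM at day 21, so that iKO mice lay lower in both. RNA of AT2 markers in endothelial cells was higher in the day 21 iKO library (19133 CPM summed over 10 markers) than in the other libraries (1013 to 5481 CPM). Sex was not balanced at either time: the 3 fl/fl mice of day 7 expressed *Xist* and the 3 LPS-treated iKO mice of day 7 expressed Y-linked genes. At day 21 fl/fl mice 2 and 5 and iKO mouse 1 held mostly *Xist* (213, 209 and 131 CPM). In contrast, iKO mice 2 and 3 held mostly Y-linked RNA (75.6 and 106 CPM). The day 21 fl/fl hashtag 1 held both, so that it may mark more than 1 mouse, although it is counted as 1 below. Without it 6 members were called in day 21 AT2 cells and 4 in day 21 endothelial cells, as with it. All mice of a group share 1 library, so that group and library cannot be told apart anywhere below.

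By the GRCm38 annotation *Fos* (ENSMUSG00000021250) is on chromosome 12 at 85473890 to 85477273, *Fosb* (ENSMUSG00000003545) on chromosome 7 at 19302696 to 19310051, *Fosl1* (ENSMUSG00000024912) on chromosome 19 at 5447547 to 5455946 and *Fosl2* (ENSMUSG00000029135) on chromosome 5 at 32135801 to 32157842. *Jun* (ENSMUSG00000052684) is on chromosome 4 at 95049034 to 95052222, *Atf3* (ENSMUSG00000026628) on chromosome 1 at 191170296 to 191218039, and *Junb* (ENSMUSG00000052837, 84974484 to 84978718), *Jund* (ENSMUSG00000071076, 70698949 to 70700616) and *Ier2* (ENSMUSG00000053560, 84661331 to 84662852) on chromosome 8. *Egr1* has the identifier ENSMUSG00000038418.

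The proximal promoters of 5 genes are shown for the sites at which signals may reach them: *Fos* and *Jun*, the most abundant in AT2 cells, and *Fosb*, *Junb* and *Atf3*, which have some of the larger genotype differences at day 21. They are the 120 bases before the RefSeq start on GRCm38.p6, on the gene's strand, at chr12:85473770-85473889 (plus) for *Fos*, chr7:19310046-19310165 (minus) for *Fosb*, chr8:84978749-84978868 (minus) for *Junb*, chr4:95052223-95052342 (minus) for *Jun* and chr1:191183334-191183453 (minus) for *Atf3*. Capitals mark matches to the motifs searched. The *Atf3* window lies inside the annotated gene and not before its outermost start.
Fos: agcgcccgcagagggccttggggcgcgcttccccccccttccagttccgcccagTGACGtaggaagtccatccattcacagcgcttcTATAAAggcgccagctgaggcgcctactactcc
Fosb: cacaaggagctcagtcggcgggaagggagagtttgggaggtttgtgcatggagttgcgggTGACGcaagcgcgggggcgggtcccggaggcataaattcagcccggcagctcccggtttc
Junb: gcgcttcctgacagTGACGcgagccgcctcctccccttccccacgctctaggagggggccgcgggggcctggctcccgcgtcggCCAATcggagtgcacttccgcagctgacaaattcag
Jun: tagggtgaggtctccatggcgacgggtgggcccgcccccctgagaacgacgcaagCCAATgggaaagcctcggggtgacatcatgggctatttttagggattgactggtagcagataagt
Atf3: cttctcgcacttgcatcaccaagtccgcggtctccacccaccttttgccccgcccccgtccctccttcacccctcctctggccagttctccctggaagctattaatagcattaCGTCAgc

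Of the 10 genes, 7 had an entry among the RefSeq promoter sequences, and *Fosl1*, *Egr1* and *Ier2* had none. The 250 bases before the start were searched on both strands. For *Atf3* and *Jund* that start is not the annotated gene start. The *Jund* window ended at 70697738, before the annotated start at 70698949, and that of *Atf3* lay inside the gene. The CRE half-site TGACG, the core of the element bound by CREB and ATF factors, was found in 4 of the 7 (*Fos*, *Fosb*, *Junb* and *Atf3*) and in 17.8% of 32851 promoters. It lay at −66 to −62 and −129 to −125 in *Fos*, at −60 to −56 in *Fosb*, at −106 to −102 in *Junb* and, on the other strand, at −7 to −3 in *Atf3*. A TATA box of the letters TATAAA was found at −33 to −28 in *Fos* and in 12.4% of promoters, and CCAAT in *Jun* and *Junb* and in 33.8% of promoters. The full CRE TGACGTCA (1.55% of promoters, and a match to it is also a match to the half-site), the AP-1 site TGANTCA (6.75%) and the CArG box bound by SRF (1.47%) were found in none of the 7 windows. These are matches of letters and not sites shown to be used. Variants of the letters, such as tgacatca in the *Jun* sequence above, and sites before the 250 bases would be missed.

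Across classes the 10 genes together made up 1.00% ± 0.288 of endothelial UMIs (SD, n = 15 mice), 1.45% ± 0.305 of AT2 UMIs (n = 13) and 2.13% ± 0.523 of mesenchymal UMIs (n = 13). In AT2 cells *Jun* was the most abundant (median 3724 CPM over 13 mice, range 1589 to 5113), followed by *Fos* (2883, 1690 to 3917) and *Jund* (2346, 1809 to 3038). In endothelial cells *Jun* also led (3191 CPM over 15 mice, 1572 to 4431), but *Jund* (1429, 911 to 2075), *Fos* (1281, 718 to 1607) and *Junb* (1158, 621 to 2408) came next, with ranges that overlapped. In mesenchymal cells *Fos* (4658 CPM over 13 mice, 2960 to 7218), *Jun* (4202, 1926 to 5658), *Egr1* (3609, 1320 to 6097) and *Junb* (3528, 1666 to 5627) lay within each other's ranges. *Fosl1* and *Fosl2*, the smaller Fos relatives that lack the strong activation domain of *Fos* and *Fosb*, were the lowest in every class. Their medians were 23.7 and 21.2 CPM in AT2 cells, 1.93 and 20.1 CPM in endothelial cells and 11.3 and 63.1 CPM in mesenchymal cells.

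**Figure D1:**
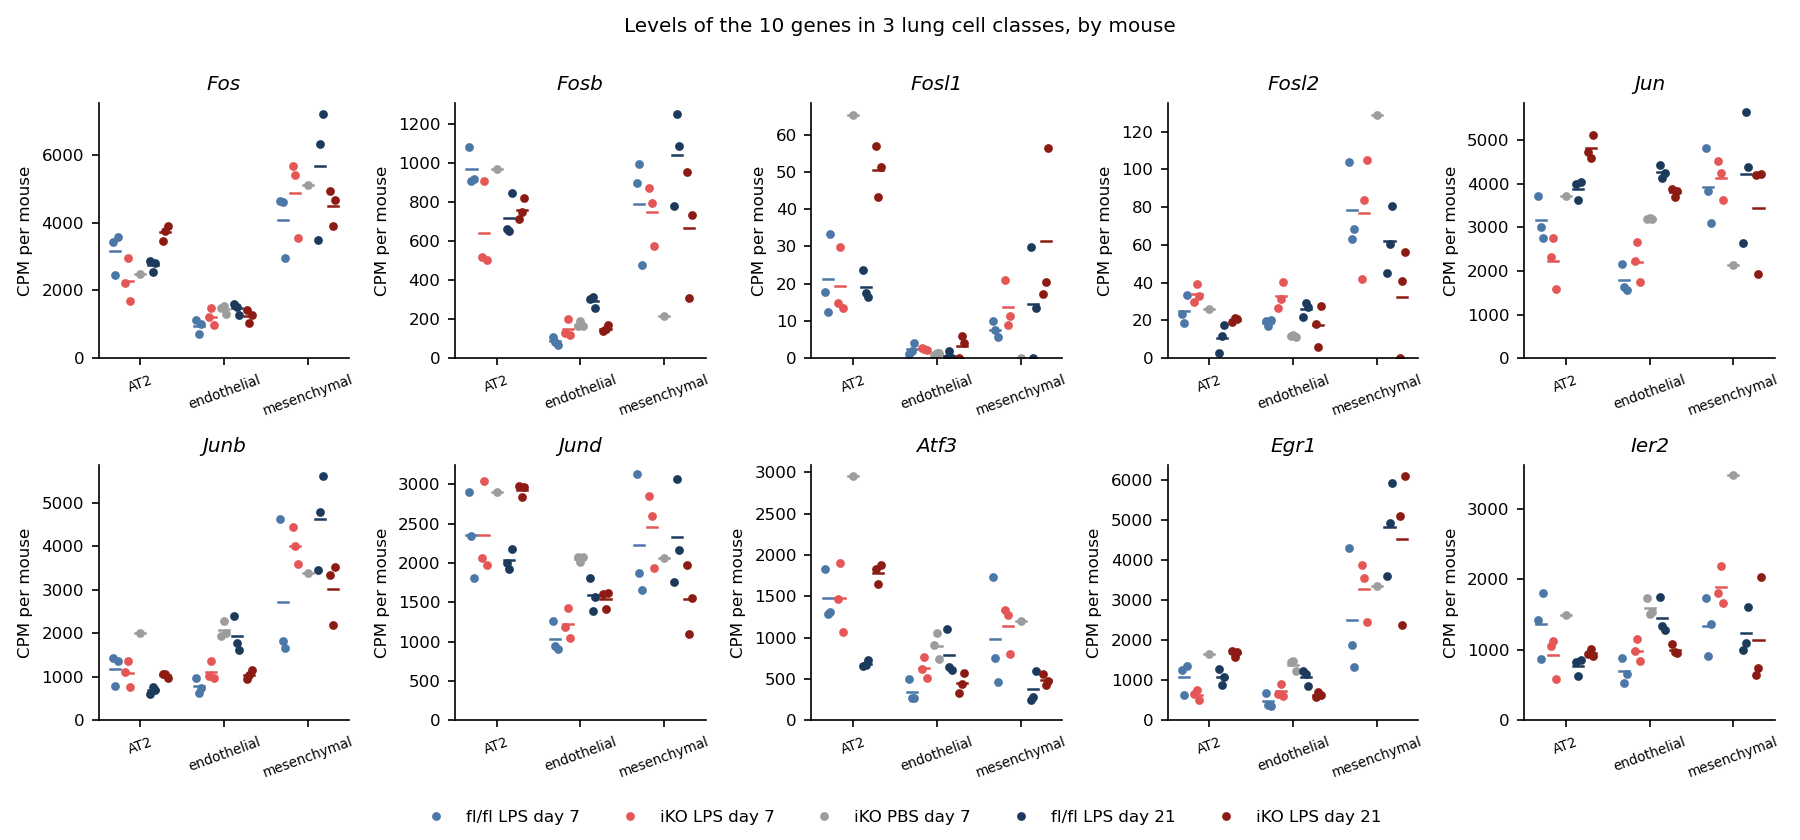
Level of each gene (CPM, linear axis from 0, its own scale per panel) in AT2, endothelial and mesenchymal cells, with 1 point per mouse, colour for the group and a short line for the group mean. Mice with under 5 cells of a class are not drawn, and the panels show *Fosb* and *Fosl1* low in endothelial cells, where *Fosb* ran from 68.9 to 313 CPM against 503 to 1082 CPM in AT2 cells.

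The classes were compared within mice, with each mouse as a block, using sums from the same mice and libraries. At day 7 the fit over all groups, on sizes that correct for composition, called all 10 genes higher in AT2 than in endothelial cells. There 59.8% of 10754 genes were called either way and 25.4% higher, and the median of all genes was −0.22 on the log2 scale. In mean CPM of LPS-treated iKO mice, *Egr1* (636 against 723), *Ier2* (923 against 990) and *Junb* (1085 against 1116) were lower in AT2 cells. Their other members were higher there, *Jun* barely (2226 against 2211). All 10 were also higher in mesenchymal than in endothelial cells, where 54.5% were called and 25.7% higher. *Fosb*, a Fos relative that pairs with Jun proteins, was among the most unequal. It differed by 3.16 ± 0.24 on the log2 scale (estimate ± SE) between AT2 and endothelial cells and by 2.60 ± 0.24 between mesenchymal and endothelial cells (adjusted p = 1.8e-13 and 1.8e-11). *Fos*, the founding member of the family, was 1.69 ± 0.20 higher in AT2 and 1.99 ± 0.20 higher in mesenchymal than in endothelial cells. *Fosl1* was near the detection limit in endothelial cells, at 0 to 5.98 CPM per mouse, and 3.81 ± 0.40 higher in AT2 cells.

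AT2 and mesenchymal cells were unlike each other in which genes they held high. At day 7, 7 of 10 differed (51.1% of genes called, 22.7% higher and 28.4% lower), 4 higher and 3 lower in AT2 cells. *Atf3*, a stress-induced factor that pairs with Jun proteins and often represses, was 1.07 ± 0.20 higher in AT2 cells, and *Fosl1* 1.62 ± 0.45. *Egr1*, a zinc finger factor induced through SRF, was 1.21 ± 0.26 lower in AT2 cells, *Junb* 1.04 ± 0.22 lower and *Fosl2* 0.98 ± 0.22 lower. *Fosb* and *Jund* were 0.56 ± 0.23 and 0.48 ± 0.20 higher, calls that were kept in 5 and 7 of 16 settings. With the hashtag rule by share of tag counts *Atf3* (0.58, adjusted p = 0.052) and *Fosl1* (1.15, adjusted p = 0.094) were not called either.

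At day 21, in AT2 against endothelial cells 7 of 10 were higher (63.4% of 8919 genes called, 31.6% higher), led by *Fosl1* at 4.47 ± 0.37, *Fosb* at 2.48 ± 0.19 and *Fos* at 1.93 ± 0.20. *Jun* and *Atf3* were also called higher. Their mean CPM lay lower in AT2 cells in fl/fl mice (3893 against 4278 and 685 against 784) and higher in iKO mice. In mesenchymal against endothelial cells 6 of 10 were higher (38.9% called, 19.5% higher), with *Egr1* at 2.47 ± 0.22, *Fosb* at 1.99 ± 0.21 and *Fos* at 1.95 ± 0.20. Between AT2 and mesenchymal cells 7 of 10 differed, 5 higher and 2 lower (45.3% called, 23.6% higher and 21.8% lower). *Atf3* was 2.08 ± 0.28 and *Jund* 0.97 ± 0.20 higher in AT2 cells, while *Junb* was 1.47 ± 0.22 and *Egr1* 1.11 ± 0.22 lower. *Fosl1* and *Fosb* were also called higher, but kept their calls in 7 and 8 of 14 settings. Since 38.9 to 63.4% of all genes were called in these comparisons, the counts of members say little by themselves.

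The Jun proteins took unequal shares of the Jun transcripts in the classes. *Jun* encodes the strongest activator of the family, *Junb* a weaker and often opposing relative, and *Jund* a relative that is present in resting cells. *Junb* was 15.4% ± 4.94 of the 3 genes' UMIs in AT2 cells (n = 13 mice), 23.1% ± 4.45 in endothelial cells (n = 15) and 37.4% ± 6.52 in mesenchymal cells (n = 13). *Jund* ran the other way, at 35.1% ± 4.74, 25.6% ± 3.30 and 22.5% ± 3.05. Among *Fos*, *Fosb*, *Fosl1* and *Fosl2*, *Fos* held 77.5% ± 3.75 in AT2 cells, 87.0% ± 2.91 in endothelial cells and 85.1% ± 3.77 in mesenchymal cells. *Fosb* held 21.1% ± 3.63 in AT2 cells against 11.3% ± 2.96 in endothelial cells. The shares pool all groups, are not independent of the levels above and were not tested.

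**Figure D2:**
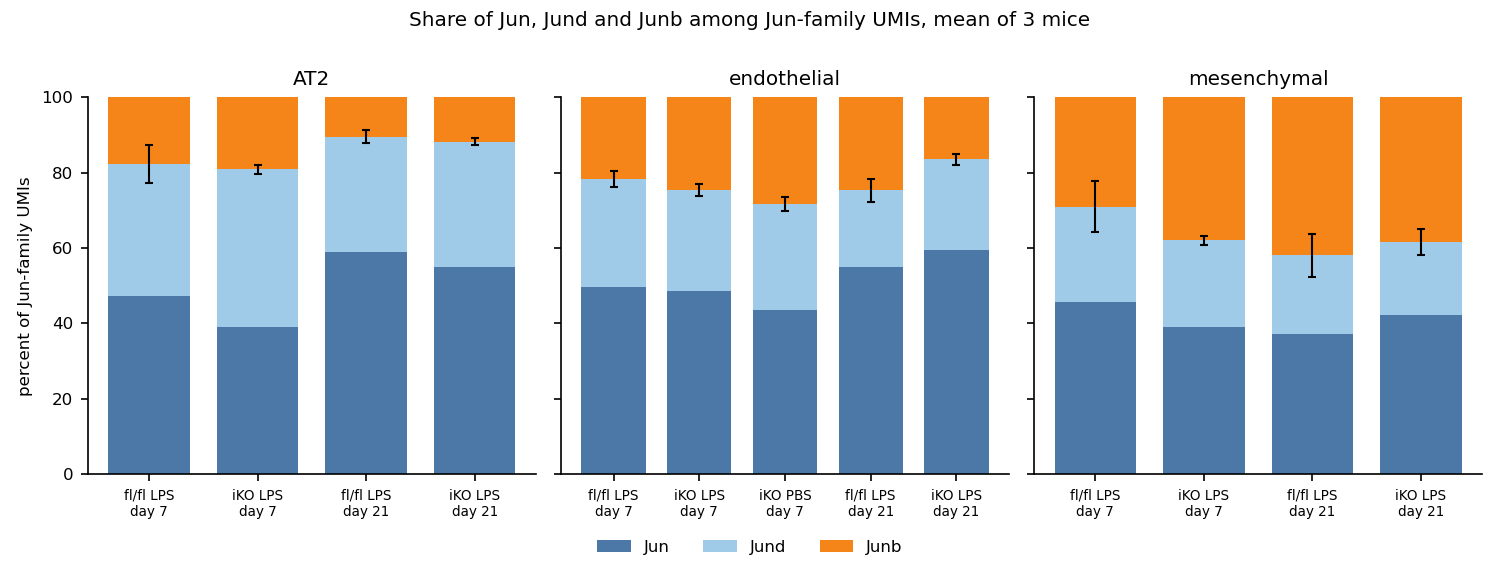
Share of the summed *Jun*, *Jund* and *Junb* UMIs held by each gene (percent, stacked bars from 0 to 100), as the mean over the 3 mice of a group in each class, with bars for the SD of the *Junb* share. Groups with fewer than 3 usable mice are left out. The *Junb* share in endothelial cells of day 21 is 24.6% ± 3.08 in fl/fl and 16.4% ± 1.40 in iKO mice, and the mesenchymal bars hold the most *Junb*.

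How evenly the transcripts were spread over cells also differed. Each cell was thinned to 1500 UMIs to set shares of cells side by side, which left out 1373 of 6508 endothelial cells but 2 of 119 AT2 cells in the day 7 fl/fl library. There *Atf3* was then found in 70.1% of AT2 cells (95% exact binomial interval 60.9 to 78.2, counting error only) and 16.7% of endothelial cells (15.7 to 17.8), against 88.2% and 20.2% before thinning at median depths of 8947 and 2428.5 UMIs. The 10% of endothelial cells with the most *Atf3* held 87.9% of its UMIs in that library, and the 10% of AT2 cells with the most held 34.1%. In PBS-treated iKO lungs, *Atf3* was found in 33.4% (32.3 to 34.6) of thinned endothelial cells and the top 10% of cells held 67.9% of its UMIs. No class here is known to lack these genes, so the share that free RNA gives could not be read from them.

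The genotype comparison at day 21 asks how AT2 cells with the *Itgb1* deletion, in which its RNA was lower but still present, differ late in repair. In AT2 cells 6 of the 10 genes were higher in iKO mice and none lower, where 3.75% of 8807 genes were called either way and 1.46% higher. The median difference of the 10 was 0.44 on the log2 scale, against 0.00 over all genes tested. *Fosl1* and *Atf3* had the largest estimates, and *Fosb*, *Fosl2*, *Jun* and *Ier2* did not pass the test. Summed markers of intermediate epithelial cells (5 genes) were at 446 to 825 CPM in fl/fl and 933 to 951 CPM in iKO AT2 cells, and summed club cell markers (3 genes) at 107 to 190 CPM and 162 to 446 CPM. The part of these in the result was not tested. Differences are fitted on sizes that correct for composition, so they need not equal the ratio of mean CPM.

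*Atf3* was at 652, 670 and 732 CPM in fl/fl mice 1, 2 and 5, and at 1825, 1645 and 1882 CPM in iKO mice 1, 2 and 3. The groups did not overlap, and the lowest iKO mouse lay far above the highest fl/fl mouse. The fitted difference was 1.26 ± 0.09 (2.40-fold, adjusted p = 7.9e-09). It kept its call under all alternatives tried, the hashtag rule among them. The fit with sex as a covariate adds little, since its genotype difference rested on iKO mouse 1 alone. After thinning, *Atf3* was found in 40.3% (33.0 to 48.0) of 176 fl/fl and 76.9% (74.4 to 79.2) of 1238 iKO AT2 cells, against 69.3% and 93.1% before thinning. These shares pool the mice of a library and include cells without a single hashtag. Their intervals hold counting error only and not the spread between mice, so they are no test of genotype.

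Among the Fos genes, *Fosl1*, which is known from migrating and wound-edge epithelium, was at 23.7, 17.4 and 16.4 CPM in fl/fl and 57.1, 43.3 and 51.4 CPM in iKO mice. All 3 iKO mice were above all 3 fl/fl mice, with a difference of 1.33 ± 0.25 (adjusted p = 0.0022), which rests on 30 UMIs in all AT2 cells of the fl/fl library. Without fl/fl mouse 5 its call was lost (1.17, adjusted p = 0.07). *Fos* was at 2883, 2552 and 2823 CPM in fl/fl and 3457, 3764 and 3917 CPM in iKO mice, again without overlap. Its difference was 0.32 ± 0.09 (adjusted p = 0.044), a call that was lost without fl/fl mouse 2 or 5 or iKO mouse 2 or 3, at adjusted p values of 0.067 to 0.15. Of 15 settings, the main one included, the call of *Fos* was kept in 6. *Fosb* differed by −0.04 ± 0.10 (adjusted p = 0.88, 95% interval −0.25 to 0.17).

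Of the Jun genes, *Junb* was at 596, 769 and 688 CPM in fl/fl and 1068, 1058 and 964 CPM in iKO mice. *Jund* was at 1997, 1923 and 2177 CPM against 2974, 2834 and 2963 CPM. Neither gene overlapped between groups, and the differences were 0.48 ± 0.10 for *Junb* and 0.41 ± 0.09 for *Jund*, both with an adjusted p of 0.0052. *Jun* itself differed by 0.19 ± 0.09 (adjusted p = 0.28), although its iKO mice (4737, 4597 and 5113 CPM) all lay above its fl/fl mice (4004, 3625 and 4051 CPM).

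*Egr1* was at 1274, 890 and 1076 CPM in fl/fl and 1733, 1585 and 1702 CPM in iKO mice. The groups stood apart, and the difference was 0.52 ± 0.11 (adjusted p = 0.0036). *Ier2*, a short-lived nuclear protein of early response, differed by 0.19 ± 0.10 (adjusted p = 0.41), and *Fosl2* by 0.61 ± 0.36 at 2.64 to 21.2 CPM (adjusted p = 0.43). With sex as a covariate, added after seeing the data, *Atf3*, *Fosl1* and *Egr1* were still called and *Fos*, *Junb* and *Jund* were not. That fit left out fl/fl mouse 1 (*Xist* 102 and Y-linked 84.3 CPM) and iKO mouse 2 (16.5 and 75.6 CPM), whose sex was not clear. It was left with fl/fl mice 2 and 5 and iKO mice 1 and 3. Only iKO mouse 3 of these was male by its RNA, so the genotype difference rested on iKO mouse 1 alone. That fit therefore cannot tell sex from the difference between single mice. The part of fewer mice in the lost calls was not tested. With a hashtag rule based on the share of tag counts only *Atf3* was still called.

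**Figure D3:**
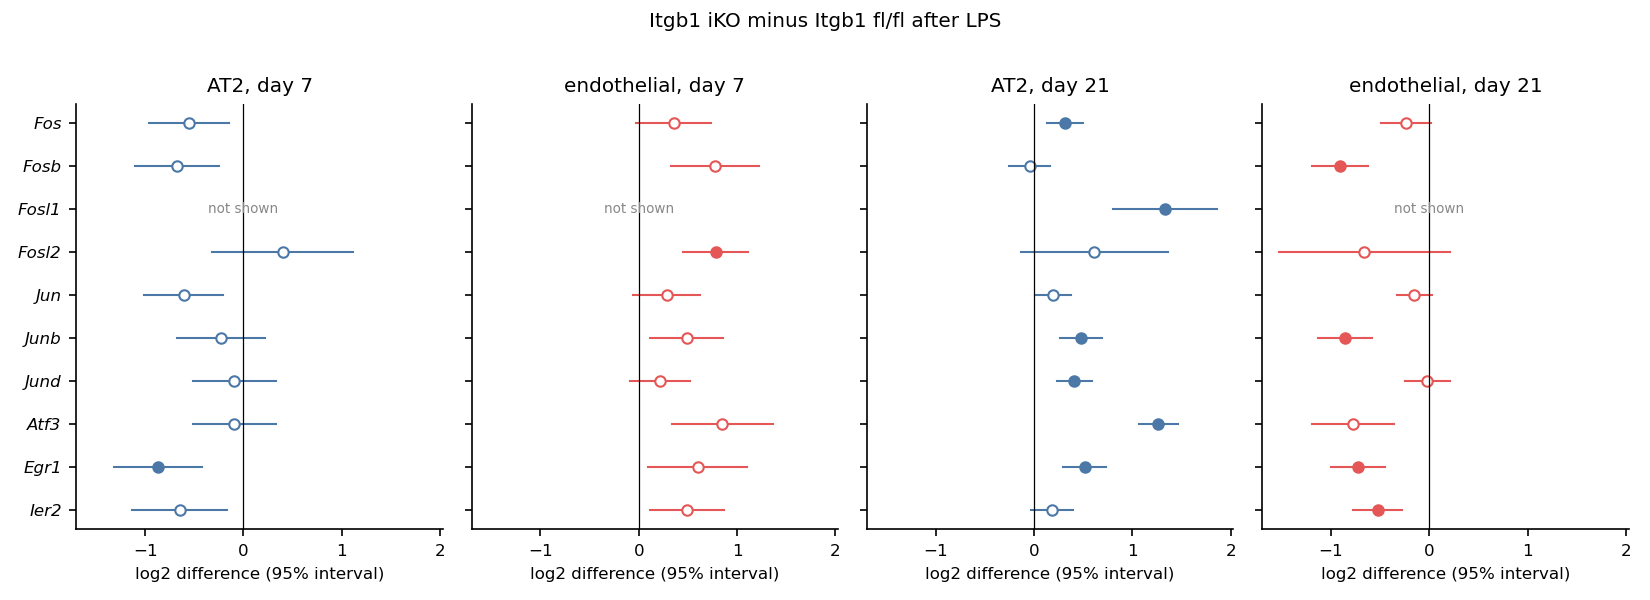
Fitted log2 difference of iKO minus fl/fl mice after LPS for each gene in AT2 and endothelial cells at day 7 and day 21, with its 95% interval, filled where the adjusted p was under 0.05. At day 21 the called genes lie above 0 in AT2 cells and below 0 in endothelial cells, and at day 7 most estimates lie on the opposite sides. *Fosl1* is not shown where too few UMIs were counted.

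In endothelial cells of the same day 21 mice the called genes lay in the other direction. Of 9 genes tested, 4 were lower in iKO mice and none higher, where 1.78% of 7244 genes were called and 0.897% lower. The median difference of the 9 was −0.66, against 0.00 over all genes tested. The endothelial cells do not carry the deletion, and RNA of AT2 markers was higher in them in the iKO library (*Sftpc* at 7.46% of its AT2 level, against 1.29% in the fl/fl library, and 9 of 9 AT2 markers tested called higher), whose part in these differences was not tested. *Egr1* and *Junb* were higher in AT2 cells and lower in endothelial cells of the same iKO mice.

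*Fosb* was at 303, 313 and 256 CPM in fl/fl mice 1, 2 and 5 and at 140, 146 and 167 CPM in iKO mice 1, 2 and 3. Every fl/fl mouse was above every iKO mouse, and *Fosb* fell by 0.91 ± 0.13 on the log2 scale (adjusted p = 0.00071). *Junb*, at 2408, 1780 and 1612 CPM against 957, 1039 and 1158 CPM, was likewise separate and fell by 0.86 ± 0.13 (adjusted p = 0.00097). Both kept their calls when any of the 6 mice was left out.

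*Egr1* was at 1232, 1160 and 848 CPM in fl/fl and 576, 708 and 633 CPM in iKO mice, without overlap, and fell by 0.73 ± 0.13 (adjusted p = 0.0048). *Ier2* was at 1749, 1334 and 1285 CPM against 1082, 964 and 959 CPM, also without overlap, and fell by 0.52 ± 0.12 (adjusted p = 0.028). *Egr1* lost its call without iKO mouse 3 (adjusted p = 0.071) and *Ier2* when any 1 of the 3 iKO mice was left out (0.052 to 0.17). Of 15 settings, the main one included, *Egr1* kept its call in 13 and *Ier2* in 9. *Atf3* was at 1100, 641 and 611 CPM against 332, 433 and 573 CPM and just missed the threshold (−0.78 ± 0.20, adjusted p = 0.052). Among the others, *Fos* differed by −0.23 ± 0.12, *Jun* by −0.15 ± 0.08, *Jund* by −0.02 ± 0.11 and *Fosl2* by −0.66 ± 0.41, with adjusted p values of 0.44 to 0.97. With the hashtag rule by share of tag counts none of the 4 calls was kept, and the same fl/fl hashtag 1 that held both *Xist* and Y-linked RNA was the highest fl/fl mouse for 7 of 8 genes.

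Day 21 mesenchymal cells gave no call among 8 genes tested by edgeR's quasi-likelihood test, where 7 of 1638 genes (0.427%) were called and 217 had an unadjusted p under 0.05. The levels spread widely within groups. *Junb* was at 3460, 4786 and 5627 CPM in fl/fl and 3355, 2182 and 3528 CPM in iKO mice, and *Egr1* at 3609, 4931 and 5929 CPM against 5101, 2387 and 6097 CPM. The groups overlapped for both genes, over 63 and 47 tagged cells.

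At day 7 *Egr1* was lower in AT2 cells of iKO mice, the opposite of its direction at day 21, and it was the only call among 9 genes tested, where 1.61% of 5086 genes were called and 0.845% lower. It was at 1265, 642 and 1362 CPM in fl/fl mice 3, 4 and 5 and at 647, 756 and 507 CPM in iKO mice 3, 4 and 5, so that fl/fl mouse 4 lay among the iKO mice. *Egr1* fell by 0.87 ± 0.21 (adjusted p = 0.039) on the log2 scale. The call was kept when fl/fl mouse 4 was left out, and leaving out any other mouse gave an adjusted p of 0.058 to 0.19.

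The remaining genes of day 7 AT2 cells did not pass the test, and the median of the 9 was −0.55, against 0.00 over all genes. *Fosb* was at 1082, 908 and 919 CPM in fl/fl and 519, 906 and 503 CPM in iKO mice, and *Fos* at 3438, 2451 and 3575 CPM against 2216, 2954 and 1690 CPM. In both, iKO mouse 4 was as high as some fl/fl mice or nearly so, and the differences were −0.68 ± 0.21 and −0.55 ± 0.19 (adjusted p = 0.11 and 0.20). *Jun* differed by −0.61 ± 0.19 (adjusted p = 0.14) and *Ier2* by −0.65 ± 0.23 (adjusted p = 0.20). *Junb*, *Jund* and *Atf3* differed by −0.22 ± 0.21, −0.09 ± 0.20 and −0.09 ± 0.20, and *Fosl2* by 0.40 ± 0.34. Heat shock genes moved beside them in these cells, with 3 of 11 lower (*Dnajb1* −1.64 ± 0.22, *Hsp90aa1* −1.04 ± 0.18, *Hspe1* −0.99 ± 0.20) and none higher. Summed club cell markers (3 genes) ranged from 419 to 13604 CPM over the fl/fl mice and from 394 to 1667 CPM over the iKO mice, and so overlapped. The part of either list in the result was not tested.

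In endothelial cells of day 7, 9 of the 10 estimates for iKO against fl/fl mice lay between 0.22 and 0.85 and *Fosl1* was near 0 UMIs, but a single gene passed the test, where 2.09% of 11668 genes were called and 1.49% higher. That gene was *Fosl2*, at 19.6, 16.8 and 20.1 CPM in fl/fl mice and 26.5, 31.4 and 40.3 CPM in iKO mice, without overlap. It was 0.78 ± 0.15 higher (adjusted p = 0.022). The call was lost when fl/fl mouse 3, 4 or 5 or iKO mouse 4 or 5 was left out, at adjusted p values of 0.05 to 0.12, and with sex as a covariate (0.82, adjusted p = 0.32).

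*Atf3* was at 496, 274 and 269 CPM in fl/fl and 619, 762 and 515 CPM in iKO endothelial cells and *Fosb* at 108, 81.3 and 68.9 CPM against 131, 201 and 116 CPM. For both genes all iKO mice lay above all fl/fl mice, with differences of 0.85 ± 0.24 and 0.78 ± 0.20 that missed the threshold (adjusted p = 0.098 and 0.082). Without fl/fl mouse 3, the highest fl/fl mouse for 8 of 8 genes, *Atf3* passed at 1.21 (adjusted p = 0.013) and *Egr1* at 0.96 (0.031). *Egr1*, *Ier2*, *Junb*, *Fos*, *Jun* and *Jund* differed by 0.60, 0.50, 0.49, 0.35, 0.29 and 0.22, with SEs of 0.14 to 0.23 and adjusted p values of 0.18 to 0.49. Mesenchymal cells of day 7 gave no call by edgeR's quasi-likelihood test among 9 genes, where 6 of 5866 genes (0.102%) were called and 348 had an unadjusted p under 0.05.

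LPS was compared with PBS within iKO mice at day 7, using the same LPS-treated mice as the genotype comparison. In endothelial cells 5 of the 10 genes were lower after LPS and 1 higher, where 26.8% of 11668 genes were called, 12.3% lower and 14.5% higher. The lower genes were *Jun*, *Junb*, *Jund*, *Egr1* and *Ier2*, and the higher gene was *Fosl2*. None of the 6 calls was lost when a mouse was left out or under the other settings tried. RNA of AT2 markers in endothelial cells was higher after LPS (5481 against 1013 CPM summed, 9 of 10 markers called higher). Proliferation markers (2 genes) rose from a mean sum of 2.66 to 213 CPM and mesenchymal markers (10 genes) from 120 to 433 CPM. The part of these in the result was not tested.

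*Junb* was at 1950, 2276 and 1999 CPM in PBS mice 1, 2 and 3 and at 1019, 1360 and 969 CPM in LPS mice 3, 4 and 5. *Egr1* was at 1453, 1491 and 1222 CPM against 648, 915 and 607 CPM, and *Jund* at 2075, 2018 and 2072 CPM against 1188, 1429 and 1045 CPM. All 3 genes stood apart between the groups, PBS mice being close to each other and LPS mice more spread. *Junb* fell by 0.99 ± 0.17 (adjusted p = 0.0016), *Egr1* by 1.04 ± 0.23 (0.0068) and *Jund* by 0.84 ± 0.14 (0.0012).

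*Jun*, at 3183, 3219 and 3191 CPM after PBS and 2238, 2657 and 1740 CPM after LPS, fell by 0.63 ± 0.16 (adjusted p = 0.012). *Ier2*, at 1733, 1515 and 1532 CPM against 977, 1155 and 836 CPM, fell by 0.78 ± 0.17 (0.0062). Neither overlapped between groups. *Fosl2* was the exception in direction, at 12, 12.1 and 11.3 CPM after PBS and 26.5, 31.4 and 40.3 CPM after LPS, and was 1.38 ± 0.16 higher (adjusted p = 0.00017). The fl/fl LPS mice, at 16.8 to 20.1 CPM of *Fosl2*, lay between. *Fos* and *Fosb*, the partners of the Jun proteins, differed by −0.33 ± 0.17 and −0.29 ± 0.20 (adjusted p = 0.19 and 0.30), and *Atf3* by −0.61 ± 0.23 (0.073).

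**Figure D4:**
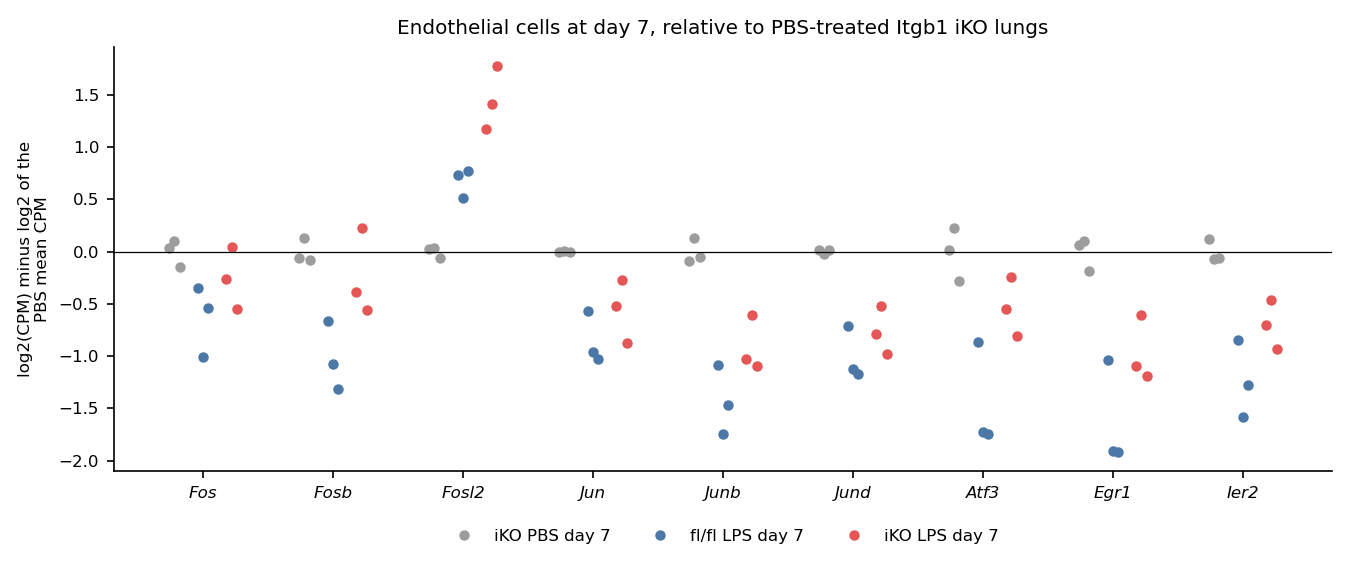
Log2 of the CPM of each mouse minus log2 of the mean CPM of the 3 PBS-treated iKO mice, for 9 genes in endothelial cells at day 7, with 1 point per mouse and the line at 0 marking the PBS mean. *Fosl2* (11.3 to 12.1 CPM in PBS mice) lies above 0 in the 6 LPS-treated mice of both genotypes, while *Jun*, *Junb*, *Jund*, *Egr1* and *Ier2* lie below 0 in them, and *Fosl1* is left out for its few UMIs.

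AT2 and mesenchymal cells of PBS-treated lungs were too few to test, with 26 and 103 cells in all and 15 and 12 with a single hashtag. The 1 PBS mouse with at least 5 AT2 cells (9 cells) held 2953 CPM of *Atf3*, 1999 of *Junb* and 1659 of *Egr1*. LPS-treated iKO mice held 1073 to 1898 CPM of *Atf3*, 773 to 1366 of *Junb* and 507 to 756 of *Egr1*, all below that mouse, but a single mouse of 9 cells carries no test. Its 2482 CPM of *Fos* lay within the 1690 to 2954 CPM of the LPS mice.

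Whether the genotype difference depended on the cell class was tested within mice, as AT2 minus endothelial, with each mouse as a block. At day 7, 6 of 10 genes differed and all 6 in the same direction, lower in AT2 relative to endothelial cells (1.18% of 11930 genes called, 0.712% lower). They were *Fosb* at −1.42 ± 0.20, *Egr1* at −1.40 ± 0.21, *Ier2* at −1.10, *Atf3* at −0.93, *Fos* at −0.86 and *Jun* at −0.84, with adjusted p values of 9.8e-10 to 0.022. At day 21, 5 of 10 differed, all higher in AT2 relative to endothelial cells (2.02% of 9014 genes called, 0.921% higher). They were *Atf3* at 2.00 ± 0.17, *Junb* at 1.30, *Egr1* at 1.23, *Fosb* at 0.86 and *Ier2* at 0.70, with adjusted p values of 6.2e-25 to 0.0024. These tests use the mice of the comparisons above and add no independent samples. The estimate of spread is shared in part over genes, so the smallest p-values do not come from these few mice alone.

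**Figure D5:**
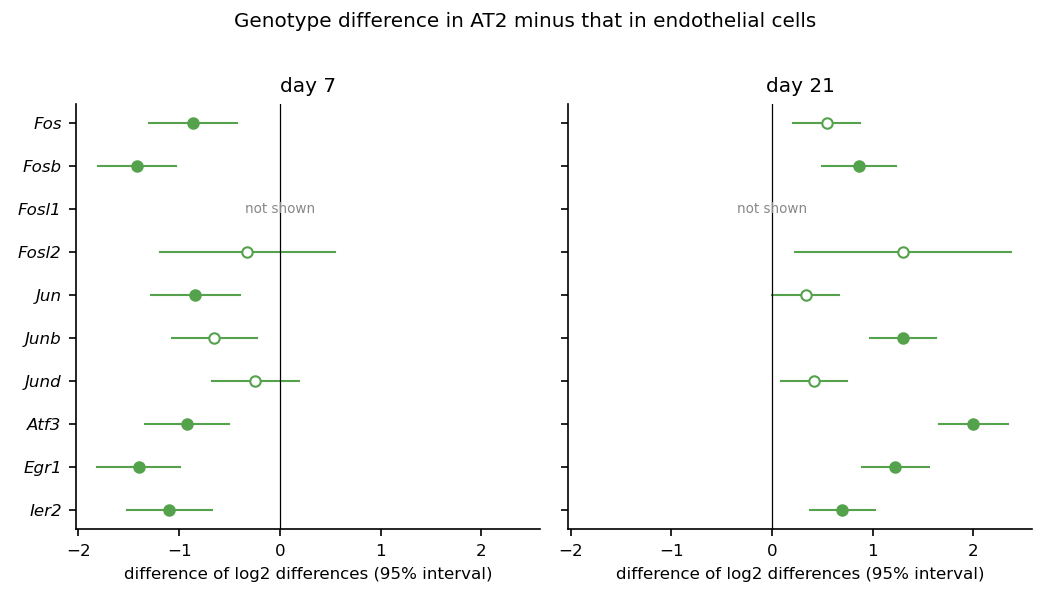
Genotype difference (iKO minus fl/fl, log2) in AT2 cells minus that in endothelial cells for each gene at day 7 and day 21, with its 95% interval, filled where the adjusted p was under 0.05. The 6 filled points of day 7 lie below 0, from −1.42 to −0.84, and the 5 of day 21 above 0, from 0.70 to 2.00, and *Fosl1* is not shown for its few endothelial UMIs.

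*Atf3*, *Egr1*, *Fosb* and *Ier2* were called at both times with opposite signs. For *Fosb* at day 21 the estimates were −0.04 in AT2 cells and −0.91 in endothelial cells. *Fos* and *Jun* lost their day 7 calls when single mice were left out, *Fos* without fl/fl mouse 4 or any iKO mouse (adjusted p 0.068 to 0.13) and *Jun* without 5 of the 6 mice (0.074 to 0.14). *Ier2* lost its day 21 call without iKO mouse 2 (0.073), and by DESeq2 *Fosb* and *Ier2* were not called at day 21 (0.17 and 0.25). Mesenchymal minus endothelial gave no call at either time by edgeR's quasi-likelihood test (0.0319% of 12554 genes and 0.436% of 6646 genes called, 706 and 422 with an unadjusted p under 0.05).

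A comparison of the genotype difference between day 21 and day 7, added after seeing the data, was made over the same mice. In AT2 cells 2 of 10 genes differed, *Atf3* by 1.36 ± 0.23 and *Egr1* by 1.39 ± 0.26 (0.63% of 6348 genes called, 0.362% higher, adjusted p = 0.0026 and 0.0051), and neither call was lost under any setting tried. Sex as a covariate was not among these settings, although sex moved with genotype at day 7. In endothelial cells 5 of 9 differed, all lower at day 21 (0.956% of 10878 genes called, 0.616% lower). These were *Fosb* at −1.70, *Atf3* at −1.64, *Junb* at −1.36, *Egr1* at −1.34 and *Ier2* at −1.03, with adjusted p values of 0.010 to 0.047, and leaving out single mice left 0 to 5 of them called. The day 21 suspensions were enriched for EPCAM-positive cells and the day 7 ones were not, which cannot be told apart from time.

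Mice of 1 library were also ranked by their level of each gene. The same ranks were not counted over all genes, so the order of mice is not shown to be particular to these genes. Over the 8 genes other than *Fosl1* and *Fosl2*, LPS-treated iKO mouse 5 of day 7 was the lowest of its library for 8 of 8 in AT2, endothelial and mesenchymal cells alike. Mouse 4 of that library was the highest for 8 of 8 in AT2 and in endothelial cells, and mouse 3 for 7 of 8 in mesenchymal cells. In the day 7 fl/fl library mouse 3 was the highest for 8 of 8 in endothelial, 7 in mesenchymal and 5 in AT2 cells. At day 21 no iKO mouse was highest or lowest for more than 4 of 8 in AT2 or endothelial cells.

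Genes whose endothelial levels followed *Fos* over the 15 mice, with each library's mean removed, were named by the highest Pearson r among 3863 genes of at least 50 CPM. Among the highest were *Atf4* (r = 0.88), *Btg2* (0.84), *Pnrc1* (0.82), *Rsrp1* (0.79), *Ccnl1* (0.79), *Iscu* (0.77) and *Rbfox2* (0.76). Of the members, *Ier2* followed *Fos* at 0.83, *Junb* at 0.72, *Jun* at 0.70, *Jund* at 0.68, *Egr1* at 0.63, *Fosb* at 0.62 and *Atf3* at 0.53. *Atf4* is known as a stress-response gene and *Btg2* as an early antiproliferative gene. The points share libraries and depth, and the values are a description of 15 mice.

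Other immediate early genes, 24 by list, were counted in the same tests, in which 1.46% of all genes were called higher in day 21 AT2 cells, 0.897% lower in day 21 endothelial cells and 1.49% higher in day 7 endothelial cells. In day 21 AT2 cells 4 of 20 tested were higher in iKO mice and none lower. *Cyr61*, a matrix protein target of YAP and SRF, was 0.98 ± 0.19 higher, *Klf6* 0.77 ± 0.10, *Ier3* 0.75 ± 0.17 and *Gadd45b* 0.75 ± 0.20, and the median of the list was 0.37. In day 21 endothelial cells 6 of 17 were lower and none higher, with *Ier3* at −1.06 ± 0.14, *Nr4a1* at −0.94 ± 0.18, *Zfp36*, which destabilizes cytokine mRNA, at −0.90 ± 0.16, *Socs3* at −0.84 ± 0.20, *Dusp1*, a MAP kinase phosphatase, at −0.69 ± 0.12 and *Klf4* at −0.44 ± 0.11. At day 7, 5 of 23 were higher in iKO endothelial cells, *Egr3* by 2.29 ± 0.38, *Nr4a1* by 1.5 ± 0.25, *Klf2* by 0.67 ± 0.13, *Klf6* by 0.52 ± 0.08 and *Dusp6* by 0.46 ± 0.10, and none of 16 was called in AT2 cells. After LPS against PBS, where 14.5% of all genes were called higher and 12.3% lower, 7 of 23 were higher in endothelial cells, among them *Ptgs2* by 3.45 ± 0.66, *Myc* by 2.35 ± 0.36 and *Nr4a1* by 1.37 ± 0.24, and 5 lower, among them *Gadd45b* at −1.51 ± 0.28.

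Of 12 genes known as AP-1 targets, 4 to 7 had enough counts to test in the AT2 and endothelial comparisons. *Areg*, an EGF receptor ligand, was higher in iKO than fl/fl mice in AT2 cells at day 7 (1.09 ± 0.24) and day 21 (0.69 ± 0.14). *Areg* in AT2 cells averaged 336 ± 88.0 CPM in fl/fl and 785 ± 283 CPM in iKO mice at day 7. *Hbegf*, another ligand of that receptor, was 1.01 ± 0.17 higher in iKO AT2 cells at day 21. In endothelial cells of day 7 *Areg* was called too, by genotype (2.98 ± 0.51) and after LPS against PBS (4.10 ± 0.57), at means of 0.693 CPM in PBS, 1.68 CPM in fl/fl LPS and 13.6 CPM in iKO LPS mice. *Sftpc* there was at 0.298%, 1.42% and 1.98% of its AT2 level in the same order. The part of AT2 RNA in these *Areg* values was not tested, so whether endothelial cells expressed *Areg* cannot be told. After LPS against PBS, *Timp1* (2.28 ± 0.36), *Cd44* (0.94 ± 0.22) and *Hbegf* (0.78 ± 0.18) were also called higher and *Plau* (−0.66 ± 0.20) and *Plaur* (−0.36 ± 0.12) lower in endothelial cells.

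Of 12 further bZIP genes that pair with or compete with AP-1, *Maff* was 0.87 ± 0.20 higher in iKO AT2 cells at day 21 and *Jdp2*, a repressor of Jun dimers, 0.63 ± 0.14 lower in iKO endothelial cells at day 7. After LPS against PBS 5 of 10 tested were lower in endothelial cells (12.3% of all genes), *Jdp2* by 1.06 ± 0.14, *Maff* by 0.71 ± 0.12, *Batf2* by 0.62 ± 0.15, *Atf4* by 0.60 ± 0.12 and *Mafg* by 0.53 ± 0.11. Of 15 MAP kinases, SRF partners and related factors upstream of these genes, none was called in a genotype comparison in any class. After LPS against PBS *Mapk8* (0.44 ± 0.13), *Srf* (0.38 ± 0.13) and *Map2k4* (0.29 ± 0.09) were higher and *Mapk14* (−0.31 ± 0.10) lower in endothelial cells. Their transcript levels say nothing of the activity of the kinases.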

How the data were processed

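Single-cell RNA was measured in 5 droplet libraries of sorted lung cells. The deposited counts are raw UMI counts per gene and hashtag antibody in each barcode, which the authors made with Cell Ranger 3.1 on mm10. The submitters' processing notes also name Seurat 4.1.0. The authors later corrected for free RNA with *Fos* among the genes used, a step that the raw counts precede.

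Cells were kept and gated as given in the report. A tag counted as used from 1% of the tag counts of its library, and a cell was positive for it from 4 times the tag's background. Cells positive for more than 1 tag, or for none, were left out of the values per mouse. Shares of cells and marker sums over a library used all gated cells. No doublet caller was run, and the gates exclude mixed markers. A mouse entered with at least 5 cells of a class.

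Counts summed per mouse and class were tested in edgeR 4.0.16 (TMM, filterByExpr, quasi-likelihood test) in R 4.3.3, with p-values adjusted by Benjamini-Hochberg over all genes tested and called under 0.05. Mice of the same day and class shared 1 fit. Comparisons between classes and interactions had the mouse as a block. The fits were tested on simulated data. Alternatives were DESeq2 1.42.0, its size factors in edgeR, no filter on low counts, stricter gates, leaving out the top 5% of cells by UMIs, assigning a mouse where 1 tag held 80% of tag counts, at least 20 cells, each mouse left out, and, added after seeing the data, sex as a covariate. Mice without a clear sex by *Xist* and Y-linked UMIs were left out of the fits with sex. For levels and figures python 3.11.15, numpy 2.4.6, pandas 2.3.3, scipy 1.17.1 and matplotlib 3.10.9 were used.

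All 10 members are named. From each list, genes that passed a test are named, and the 8 genes most like *Fos* by their level, of which 1 is not reported here. The members and lists were chosen with earlier results of these data known. p-values measure the spread between mice of 1 library, with an estimate of spread that edgeR shares in part over genes. The smallest of them therefore do not come from these few mice alone.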

Additional observations from a re-analysis of the deposited data

Results flagged for a closer look

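The genotype difference (iKO minus fl/fl, log2) was not the same in AT2 and endothelial cells, by the test of the difference within mice. At day 7 AT2 minus endothelial was −1.42 for *Fosb*, −1.40 for *Egr1*, −1.10 for *Ier2*, −0.93 for *Atf3*, −0.86 for *Fos* and −0.84 for *Jun*. At day 21 it was 2.00 for *Atf3*, 1.30 for *Junb*, 1.23 for *Egr1*, 0.86 for *Fosb* and 0.70 for *Ier2*. For *Fosb* at day 21 the estimates behind it were −0.04 in AT2 and −0.91 in endothelial cells.

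The genotype difference also differed between day 21 and day 7. In AT2 cells it was higher at day 21 by 1.36 for *Atf3* and 1.39 for *Egr1*. In endothelial cells the value of day 21 minus day 7 was −1.70 for *Fosb*, −1.64 for *Atf3*, −1.36 for *Junb*, −1.34 for *Egr1* and −1.03 for *Ier2*. Heat shock genes in AT2 cells moved beside these, with *Dnajb1* 2.09 ± 0.27 and *Hsp90aa1* 1.14 ± 0.21 higher at day 21 than at day 7. Sex moved with genotype at day 7, and its part in the AT2 minus endothelial difference of that day could not be fitted. It was also uneven between genotypes at day 21. The day 21 minus day 7 comparisons were not fitted with sex.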

How the results depend on the processing

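Apart from leaving out single mice, counts of members called were within 1.5 times the main count in 126 of 139 alternatives. Single members were followed where called and, if uncalled, only in the AT2 and endothelial genotype and LPS comparisons, without endothelial *Fosl1*. These kept their direction and their side of the threshold in 749 of 817, with 53 calls lost, 10 gained and 5 signs turned. Some of these alternatives, such as sex as a covariate and the higher minimum of cells per mouse, also held fewer mice in some fits. Without the filter on low counts 2 members were called in day 7 AT2 cells and 3 in day 7 endothelial cells, and 6 for day 21 minus day 7 in AT2 cells. DESeq2 called 2 in day 7 endothelial cells and 3 for AT2 minus endothelial at day 21. The hashtag rule by share of tag counts called 0 in endothelial cells at day 7 (215 of 11445 genes in all) and 0 at day 21 (33 of 6679, against 129 of 7244), 1 in day 21 AT2 cells (25 of 6644, against 330 of 8807), 2 for AT2 minus endothelial at day 21 and 1 for day 21 minus day 7 in endothelial cells. Sex as a covariate left 0 in day 7 endothelial cells (75 of 12377 genes in all, against 244 of 11668), 3 in day 21 AT2 cells (93 of 9578) and 3 for AT2 minus endothelial at day 21. The day 21 fits with sex also left out fl/fl mouse 1 and iKO mouse 2. Only iKO mouse 3 of the rest was male by its RNA, so their genotype difference rested on iKO mouse 1 alone. The cause of these changes was not tested.

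Signs turned for *Fosb* in day 21 AT2 cells without the filter (0.000379), for *Jund* in day 21 endothelial cells under the hashtag rule (0.0792) and sex (0.15), for *Fos* there under sex (0.0606), and for *Jund* in AT2 against mesenchymal cells at day 7 under the hashtag rule (−0.0790). All were called in neither fit except the last, whose main value was 0.48.

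With single mice left out, calls ranged from 0 to 1 in day 7 AT2 cells, 0 to 2 in day 7 endothelial cells (2 without fl/fl mouse 3), 0 to 1 in day 7 mesenchymal cells, 4 to 6 in day 21 AT2 cells, 2 to 5 in day 21 endothelial cells (2 without iKO mouse 3), 0 to 1 for mesenchymal minus endothelial at day 21 (1 without fl/fl mouse 5), 2 to 5 for day 21 minus day 7 in AT2 cells and 0 to 5 in endothelial cells (0 without iKO mouse 2). Uncalled members whose sign turned with a mouse left out were, in AT2 cells, *Jund* (−0.338 to 0.101) and *Atf3* (−0.339 to 0.111) at day 7 and *Fosb* (−0.0968 to 0.0940) at day 21, and in day 21 endothelial cells *Jund* (−0.111 to 0.0902).

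No paired analysis was possible because groups hold different mice: each group is 1 library, the labels give no replicate numbers that groups share, and the same hashtag number names different mice in different libraries. Only the comparisons between classes and the AT2 or mesenchymal minus endothelial differences of the genotype effect were fitted within mice. The fit of day 21 mesenchymal cells with at least 20 cells per mouse was not run, and sex could not be fitted at day 7 in AT2 or mesenchymal cells or in the interactions. Depth limits *Fosl1* in endothelial cells and all of PBS-treated AT2 and mesenchymal cells. Group means in CPM moved by their SD or more in 48 cases without the 10 most abundant genes, and 82 did not. With all cells of a library 21 moved and 109 did not. Shares of cells left their counting interval on thinning in 126 cases and stayed within it in 24.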

Other observations

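Heat shock genes, 11 by list, are another set known to respond to handling. Apart from day 7 AT2 cells they were little called by genotype, with *Hspb1* 0.72 ± 0.12 higher in day 21 iKO AT2 cells and none of 11 called in endothelial cells at either time. After LPS against PBS *Hspa8* was 0.95 ± 0.15, *Dnajb1* 0.63 ± 0.19 and *Bag3* 0.49 ± 0.10 lower in endothelial cells, where 12.3% of all genes tested were lower.

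*Ier3* was far more abundant in endothelial than in AT2 cells, at 2080 ± 533 CPM in fl/fl and 985 ± 70.6 CPM in iKO endothelial cells of day 21 against 91.2 ± 16.7 and 159 ± 24.6 CPM in AT2 cells (SD, n = 3 mice each).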
